A study of Mus musculus with 21 samples.

Results

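Expression of 7 genes of the cytosolic nucleic acid sensing machinery was followed across whole Lewis lung carcinoma (LLC) tumors with and without intratumoral STING agonist, and in STING-deficient hosts. The 7 genes were taken by name from the 750 probes of a NanoString PanCancer panel, which counts barcoded probe molecules hybridised to RNA without amplification. They were Tmem173 (STING), Ifih1 (MDA5), Ddx58 (RIG-I), Ddx60, Zbp1, Mavs and Tbk1. The rule that chose them names genes and no values, but they were chosen with earlier results of these data known. LLC is a mouse lung carcinoma line, and its cells were implanted into the right flank. The labels name the tissue as lung, whereas the growth protocol describes flank implants, and none of the 7 lung epithelium markers listed for the check was on the panel.

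The 21 libraries came from 3 groups of male C57BL/6 mice: wild-type mice given intratumoral PBS (wild-type sham, 9 libraries), wild-type mice given intratumoral STING agonist, named as cGAMP in the series description (wild-type agonist, 8 libraries), and TMEM173(gt/gt) mice given PBS (STING-deficient sham, 4 libraries). No STING-deficient mouse given agonist was included, so the response to agonist could not be compared between genotypes. The gt, or goldenticket, allele is a missense change that leaves the host without detectable STING protein, while the implanted line was the same in both hosts. The labels give no age, dose or time after injection, and do not say whether every library is another animal; the p-values reflect variation among libraries, which may be partly technical.

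STING is an adaptor of the endoplasmic reticulum that binds the cyclic dinucleotide cGAMP, the product of the cytosolic DNA sensor cGAS, and recruits the kinase TBK1. RIG-I and MDA5 are helicases that detect cytosolic RNA and signal through MAVS on mitochondria, which also engages TBK1, so that the DNA and RNA branches converge on phosphorylation of IRF3 and production of type I interferon. Interferon in turn raises transcription of several sensors, among them Ifih1, Ddx58, Ddx60 and Zbp1.

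Promoter sequences of 5 of the 7 genes were found by symbol in RefSeq (GRCm38.p6), as windows of 300 bases from 250 upstream to 50 downstream of the annotated start, and are shown because the core of the interferon-stimulated response element was present in the Ifih1, Ddx58 and Ddx60 windows and not in those of Mavs and Tbk1. The motif was written GAAANNGAAA and searched on both strands, and no matches overlapped. Capitals mark the matches, and each window is given 5′ to 3′ on the strand of the gene. The order is Ifih1 (chr2:62646206-62646505, minus strand), Ddx58 (chr4:40239776-40240075, minus strand), Ddx60 (chr8:61927837-61928136, plus strand), Mavs (chr2:131233813-131234112, plus strand) and Tbk1 (chr10:121586745-121587044, minus strand).
Ifih1: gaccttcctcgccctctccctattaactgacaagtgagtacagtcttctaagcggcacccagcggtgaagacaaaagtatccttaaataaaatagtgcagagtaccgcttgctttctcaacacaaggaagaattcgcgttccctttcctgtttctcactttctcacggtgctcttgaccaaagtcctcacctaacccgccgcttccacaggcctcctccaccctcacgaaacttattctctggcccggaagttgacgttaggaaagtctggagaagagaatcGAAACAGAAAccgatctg
Ddx58: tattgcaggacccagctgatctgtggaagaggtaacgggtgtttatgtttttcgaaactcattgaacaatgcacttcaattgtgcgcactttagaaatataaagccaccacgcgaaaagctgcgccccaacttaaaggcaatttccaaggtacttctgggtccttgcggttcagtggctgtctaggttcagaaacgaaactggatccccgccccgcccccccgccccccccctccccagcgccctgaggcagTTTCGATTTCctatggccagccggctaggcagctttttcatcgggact
Ddx60: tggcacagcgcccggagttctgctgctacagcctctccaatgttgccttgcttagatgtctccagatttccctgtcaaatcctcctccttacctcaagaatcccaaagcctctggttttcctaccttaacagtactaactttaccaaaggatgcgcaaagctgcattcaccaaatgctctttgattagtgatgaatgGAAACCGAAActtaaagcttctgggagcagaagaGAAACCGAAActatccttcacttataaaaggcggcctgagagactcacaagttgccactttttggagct
Mavs: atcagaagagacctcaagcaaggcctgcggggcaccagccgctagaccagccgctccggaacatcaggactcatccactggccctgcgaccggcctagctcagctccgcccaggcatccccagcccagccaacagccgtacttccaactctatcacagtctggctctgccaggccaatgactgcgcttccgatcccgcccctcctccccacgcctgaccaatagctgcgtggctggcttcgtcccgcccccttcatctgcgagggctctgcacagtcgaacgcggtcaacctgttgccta
Tbk1: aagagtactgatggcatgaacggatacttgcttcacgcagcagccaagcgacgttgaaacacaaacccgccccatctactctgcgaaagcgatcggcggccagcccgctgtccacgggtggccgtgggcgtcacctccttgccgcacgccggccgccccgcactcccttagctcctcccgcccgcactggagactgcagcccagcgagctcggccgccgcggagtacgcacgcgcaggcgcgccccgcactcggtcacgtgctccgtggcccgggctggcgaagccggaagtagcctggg

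Ifih1 had 1 match, GAAACAGAAA, that began 32 bases downstream of the start. Ddx58 had 1 match on the opposite strand, read as TTTCGATTTC on the strand of the gene, 2 bases downstream of the start. Ddx60 had 2 matches, both GAAACCGAAA, beginning 53 and 19 bases upstream of the start. The same letters occurred in 3.44% of the 32851 promoter windows of the RefSeq table. A match describes letters in a window and is not a measured binding site. Tmem173 and Zbp1 are named without a sequence, because no window was found under these symbols. Whether their promoters hold the motif was not tested.

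The values analysed were the authors' normalized values, which are whole molecule counts multiplied by 1 factor per library (0.65 to 1.41), and recovered totals ran from 256573 to 763976 counts. Differences were fitted as log2(value + 1) with limma on the 689 probes that reached a value of 20 in at least 4 libraries, and adjusted p-values are Benjamini-Hochberg values over these 689. All 7 genes passed that filter. The agonist libraries were higher over most of the panel: the mean log2 value of the tested probes differed from the wild-type sham mean by -0.11 to 1.59 in agonist libraries, by -0.17 to 0.15 in wild-type sham libraries and by -0.69 to -0.10 in STING-deficient libraries. The median difference of all tested probes was 0.98 log2 units after agonist and 0.13 once libraries were rescaled by TMM (trimmed mean of M values, which aligns the bulk of the probes). Each comparison is therefore given under both scalings where they differ. Values of agonist replicates 6, 7 and 8 had 2 decimals where those of the other 18 libraries had more, and results are also given without these 3.

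**Figure D1:**
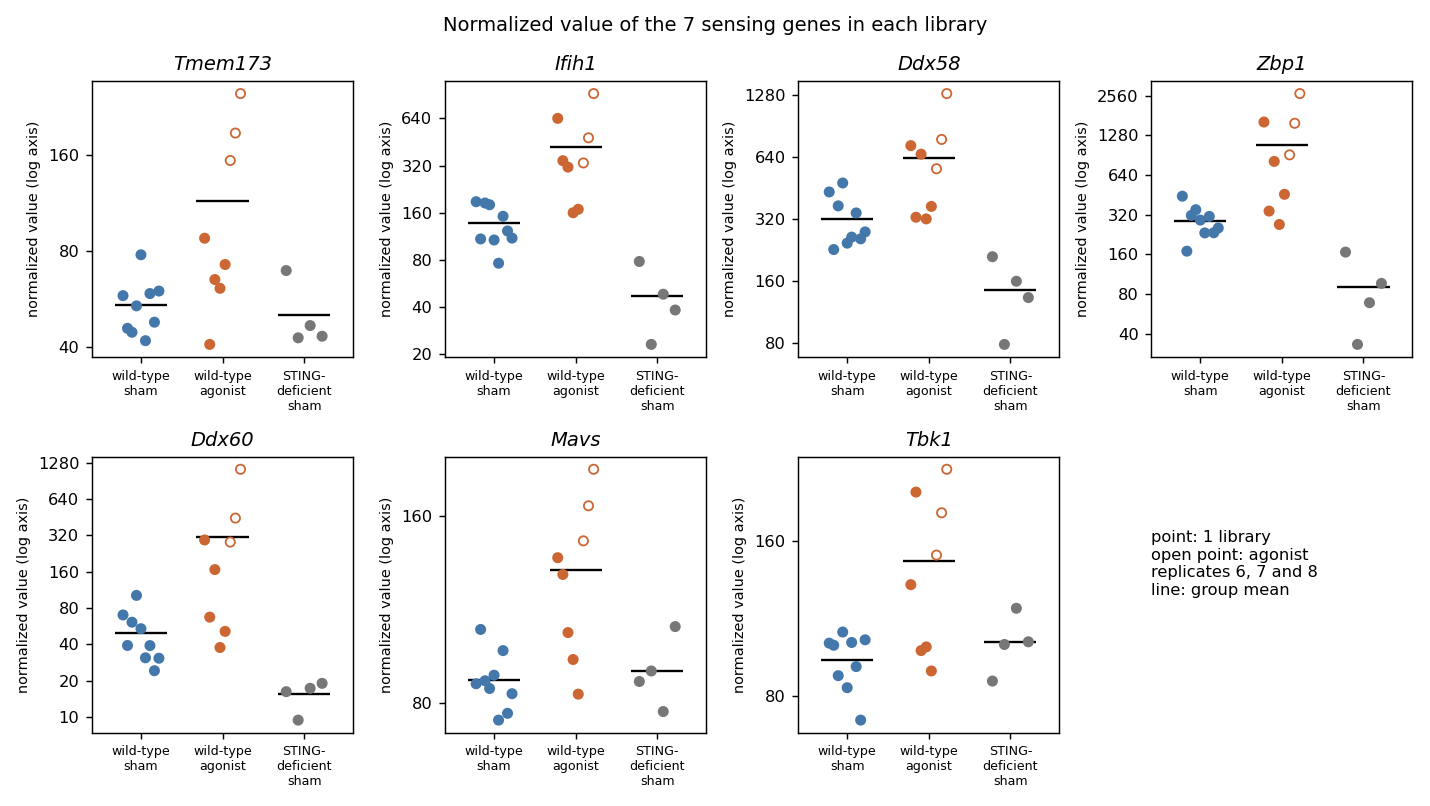
Normalized value (log axis) of each of the 7 genes in the 9 wild-type sham, 8 wild-type agonist and 4 STING-deficient sham libraries. Each point is 1 library, lines are group means, and open points are agonist replicates 6, 7 and 8. Ifih1, Ddx58, Zbp1 and Ddx60 had every agonist library above every STING-deficient library, while Tmem173, Mavs and Tbk1 overlapped between all 3 groups.

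Tmem173, the gene carrying the goldenticket allele, was read in both genotypes, and no STING-deficient library left the wild-type sham range. In wild-type sham libraries its value ran from 41.8 through a median of 53.7 to 77.8 (mean 54.2 ± 11.1, SD, n = 9). The 4 STING-deficient libraries read 69.4, 42.6, 46.6 and 43.1 (mean 50.4 ± 12.8, SD, n = 4), and the fitted difference from wild-type sham was -0.11 ± 0.36 log2 units (SE, adjusted p = 0.935). A probe for the transcript of a missense allele cannot check the genotype label.

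After agonist the Tmem173 value ran from 40.6 through a median of 80.1 to 249.97 (mean 115 ± 74.2, SD, n = 8). Replicates 6, 7 and 8 held the highest values, 154, 188 and 249.97, replicate 2 fell below every wild-type sham library, and 4 of 8 libraries lay above the wild-type sham range. The fitted difference from wild-type sham was 0.85 ± 0.29 log2 units (SE, adjusted p = 0.0156), which was below the median of the whole panel. With TMM scaling it was -0.01 (adjusted p = 0.977), and without replicates 6, 7 and 8 it was 0.25 (adjusted p = 0.305). Against STING-deficient sham the difference was 0.95 ± 0.37 (adjusted p = 0.0254), it was -0.17 with TMM scaling (adjusted p = 0.637), and the call was lost without STING-deficient replicate 2, 3 or 4 (adjusted p from 0.0567 to 0.0697).

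Ifih1 encodes MDA5, which detects long double-stranded RNA. Its value was 76.0, 122 and 188 at the lowest, median and highest wild-type sham library (mean 136 ± 40.7, SD, n = 9). After agonist the lowest, median and highest values were 159.7, 338 and 923 (mean 420.2 ± 257, SD, n = 8), with 6 of 8 libraries above the wild-type sham range and replicates 4 and 5, at 159.7 and 168, within it. STING-deficient libraries read 78.0, 23.0, 48.2 and 38.2 (mean 46.8 ± 23.2, SD, n = 4), and 3 of the 4 lay below every wild-type sham library.

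Ifih1 rose by 1.45 ± 0.32 log2 units after agonist (SE, adjusted p = 0.00276) and by 0.58 with TMM scaling (adjusted p = 0.0425), but the call was lost without agonist replicates 6, 7 and 8 (1.11, adjusted p = 0.0536). The genotype difference, STING-deficient minus wild-type sham, was -1.59 ± 0.40 (adjusted p = 0.0282) and -1.34 with TMM scaling (adjusted p = 0.0020). Under the authors' scaling that call was lost without any one of wild-type sham replicates 1, 3, 4 and 7 or STING-deficient replicates 2, 3 and 4 (adjusted p from 0.0516 to 0.286), with a difference between -1.30 and -1.65. Agonist exceeded STING-deficient sham by 3.04 ± 0.40 (adjusted p = 1.5e-05), with no overlap of the groups.

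Ddx58 encodes RIG-I, which detects RNA with a 5′-triphosphate end. Wild-type sham values were 228, 278 and 480 at the lowest, median and highest library (mean 322 ± 90.0, SD, n = 9), and agonist values were 321, 612 and 1302 (mean 632 ± 326, SD, n = 8). Agonist replicates 2, 4 and 5 remained within the wild-type sham range and the other 5 exceeded it. STING-deficient libraries read 211, 79.2, 160.3 and 134 (mean 146 ± 54.8, SD, n = 4), all below the lowest wild-type sham library.

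The difference of Ddx58 after agonist was 0.86 ± 0.27 log2 units (SE, adjusted p = 0.00911), smaller than the panel median of 0.98, and -0.01 with TMM scaling (adjusted p = 0.988). Although the STING-deficient and wild-type sham groups did not overlap, their difference of -1.18 ± 0.33 missed the threshold (adjusted p = 0.0607; 0.0595 with TMM scaling). It passed without agonist replicate 2, 4 or 8, which enter the shared estimate of the spread, or without STING-deficient replicate 1 (adjusted p from 0.0202 to 0.0476). It also passed with only the 2 sham groups in the limma fit (adjusted p = 0.00806), when 80 of the 689 probes were called lower. Agonist exceeded STING-deficient sham by 2.04 ± 0.34 (adjusted p = 0.000137) and by 0.91 with TMM scaling (adjusted p = 0.0112).

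Ddx60, an interferon-inducible helicase reported in human cells to act with RIG-I, varied most among the 7 genes, with an SD of 1.71 log2 units over the 21 libraries. Wild-type sham values were 24.3, 39.3 and 102 at the lowest, median and highest library (mean 50.2 ± 24.7, SD, n = 9). Agonist values were 37.8, 224 and 1125 (mean 308 ± 359, SD, n = 8), a 29.8-fold range within the group, and 5 of 8 libraries exceeded the wild-type sham range. STING-deficient libraries read 16.3, 9.47, 17.4 and 19.1 (mean 15.5 ± 4.21, SD, n = 4), all below the lowest wild-type sham library and resting on 14 to 23 recovered counts each.

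Ddx60 rose by 1.92 ± 0.52 log2 units after agonist (SE, adjusted p = 0.00486) and by 1.06 with TMM scaling (adjusted p = 0.0422). Without agonist replicates 6, 7 and 8, which read 281, 444 and 1125, the difference was 0.99 and missed the threshold (adjusted p = 0.0846). STING-deficient sham differed from wild-type sham by -1.54 ± 0.64 (adjusted p = 0.400). With only these 2 groups in the limma fit the adjusted p was 0.00835, when 80 of the 689 probes were called lower and 2 higher. Agonist exceeded STING-deficient sham by 3.46 ± 0.66 (adjusted p = 0.000365), with every agonist library above every STING-deficient one.

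Zbp1 encodes a sensor of Z-form nucleic acids that can start necroptosis through RIPK3. It ran from 169 through 291 to 441 in wild-type sham (mean 288 ± 79.0, SD, n = 9) and from 269 through 859 to 2649 after agonist (mean 1077 ± 818, SD, n = 8). Agonist replicates 1, 7 and 8 stood highest at 1611, 1577 and 2649, and replicates 2 and 4, at 340.2 and 269, lay within the wild-type sham range. The STING-deficient values of 166, 33.2, 68.7 and 96.2 (mean 91.1 ± 56.4, SD, n = 4) were all below the lowest wild-type sham library, the highest of them by a small margin.

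The rise of Zbp1 after agonist was 1.56 ± 0.40 log2 units (SE, adjusted p = 0.0039), 0.69 with TMM scaling (adjusted p = 0.0762) and 1.002 without agonist replicates 6, 7 and 8 (adjusted p = 0.0656). STING-deficient sham differed from wild-type sham by -1.83 ± 0.49 (adjusted p = 0.0479), and by -1.57 with TMM scaling (adjusted p = 0.0101). The first of these sits at the threshold: it was lost without any one of wild-type sham replicates 1 and 3 to 9, agonist replicates 3 and 6, or STING-deficient replicates 2, 3 and 4 (adjusted p from 0.0582 to 0.401), while the difference stayed between -1.42 and -1.93. Agonist exceeded STING-deficient sham by 3.38 ± 0.50 (adjusted p = 4.3e-05).

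Mavs, the mitochondrial adaptor of RIG-I and MDA5, varied least, with an SD of 0.38 log2 units over the 21 libraries. Its value was 74.9, 85.8 and 105 at the lowest, median and highest wild-type sham library (mean 86.9 ± 9.38, SD, n = 9), and 86.5, 90.0, 77.4 and 106 in the STING-deficient libraries (mean 90.0 ± 12.01, SD, n = 4). After agonist it was 82.6, 133 and 191 (mean 131 ± 36.9, SD, n = 8), with 5 of 8 libraries above the wild-type sham range. The agonist difference of 0.55 ± 0.17 log2 units (SE, adjusted p = 0.00893) became -0.32 with TMM scaling (adjusted p = 0.0873), so its direction depended on the scaling. STING-deficient and wild-type sham differed by 0.05 ± 0.21 (adjusted p = 0.956).

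Tbk1, the kinase on which both branches converge, followed a similar course. Wild-type sham values were 72.0, 100.5 and 107 (lowest, median and highest, mean 94.1 ± 11.4, SD, n = 9), agonist values were 89.6, 141 and 219.7 (mean 146 ± 49.7, SD, n = 8), and STING-deficient values were 85.7, 101, 118 and 102 (mean 102 ± 13.4, SD, n = 4). The groups overlapped in all 3 comparisons. The agonist difference was 0.56 ± 0.19 log2 units (SE, adjusted p = 0.0125) and -0.30 with TMM scaling (adjusted p = 0.14), and the STING-deficient difference was 0.11 ± 0.23 (adjusted p = 0.914).

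Against STING-deficient sham, Mavs and Tbk1 had a positive difference under the authors' scaling and were called lower with TMM scaling. Under the authors' scaling the agonist group exceeded STING-deficient sham by 0.50 ± 0.21 for Mavs (adjusted p = 0.0396) and by 0.45 ± 0.23 for Tbk1 (adjusted p = 0.0833). With TMM scaling the differences were -0.63 for Mavs (adjusted p = 0.0080) and -0.67 for Tbk1 (adjusted p = 0.0095). The Mavs call under the authors' scaling was lost without any one of agonist replicates 1, 6, 7 and 8 or STING-deficient replicates 1, 2 and 3 (adjusted p from 0.0591 to 0.113), and Tbk1 passed without agonist replicate 3, 4 or 5 (adjusted p from 0.0326 to 0.0486). Relative to the panel median of its own library, Mavs stood at 0.15 ± 0.18 log2 units in wild-type sham (SD, n = 9), -0.21 ± 0.26 after agonist (SD, n = 8) and 0.60 ± 0.35 in STING-deficient sham (SD, n = 4). Tbk1 had the same order of groups, at 0.26 ± 0.17, -0.08 ± 0.30 and 0.77 ± 0.39 (SD).

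**Figure D2:**
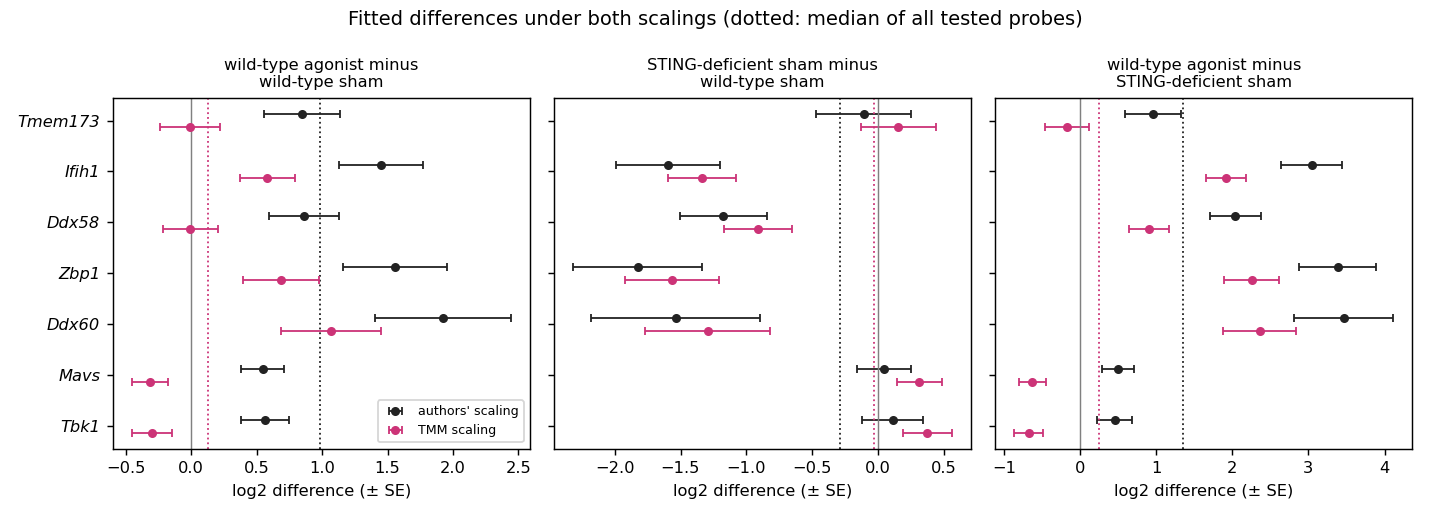
Fitted log2 differences (± SE) of the 7 genes in the 3 comparisons, under the authors' scaling (black) and TMM scaling (magenta), with dotted lines at the median of the 689 tested probes. In STING-deficient against wild-type sham, Ifih1, Ddx58, Zbp1 and Ddx60 lay below the panel median and the other 3 genes above it, and after agonist Tmem173, Ddx58, Mavs and Tbk1 lay below the panel median, under both scalings.

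All 7 genes passed the limma test as higher after agonist, when 71.1% of tested probes did and 0.726% were called lower, so most of the panel shared that call. Their median difference was 0.86 log2 units against 0.98 for all tested probes. With TMM scaling 2 of 7 were called higher, Ifih1 and Ddx60, when 10.2% of probes were called higher and 16.5% lower, and without agonist replicates 6, 7 and 8 none of the 7 was called, when 0.435% of probes were called higher; at an unadjusted p under 0.05, 3 of the 7 and 333 of the 689 probes passed there. No gene of the 7 had agonist and wild-type sham groups that did not overlap, a state reached upward by 1.16% of probes.

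The genotype comparison, which shares its wild-type sham libraries with the agonist comparison, called 2 of 7 genes lower, Ifih1 and Zbp1, when 2.76% of tested probes were called lower and none higher. Both were also called with TMM scaling, when again 2.76% of probes were called lower. The median difference of the 7 genes was -1.18 log2 units against -0.28 for all tested probes. Ddx58, Zbp1 and Ddx60 had groups that did not overlap, a state reached downward by 5.66% of probes. Leaving out 1 library at a time left 0 to 3 of the 7 called, so the count of 2 rests on few libraries.

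In the third comparison, agonist against STING-deficient sham, 6 of 7 genes were called higher and Tbk1 was not, when 73.6% of probes were called higher and 0.581% lower. Without agonist replicates 6, 7 and 8, Ifih1, Ddx58, Zbp1 and Ddx60 were called, when 53.8% of probes were called higher and 0.145% lower. With TMM scaling 4 were higher (Ifih1, Ddx58, Zbp1 and Ddx60) and 2 lower (Mavs and Tbk1), when 19.3% of probes were higher and 19.4% lower. The 4 that were higher under both scalings also had groups that did not overlap, as did 16.5% of probes. Genotype and treatment both differ in this comparison and cannot be told apart.

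**Figure D3:**
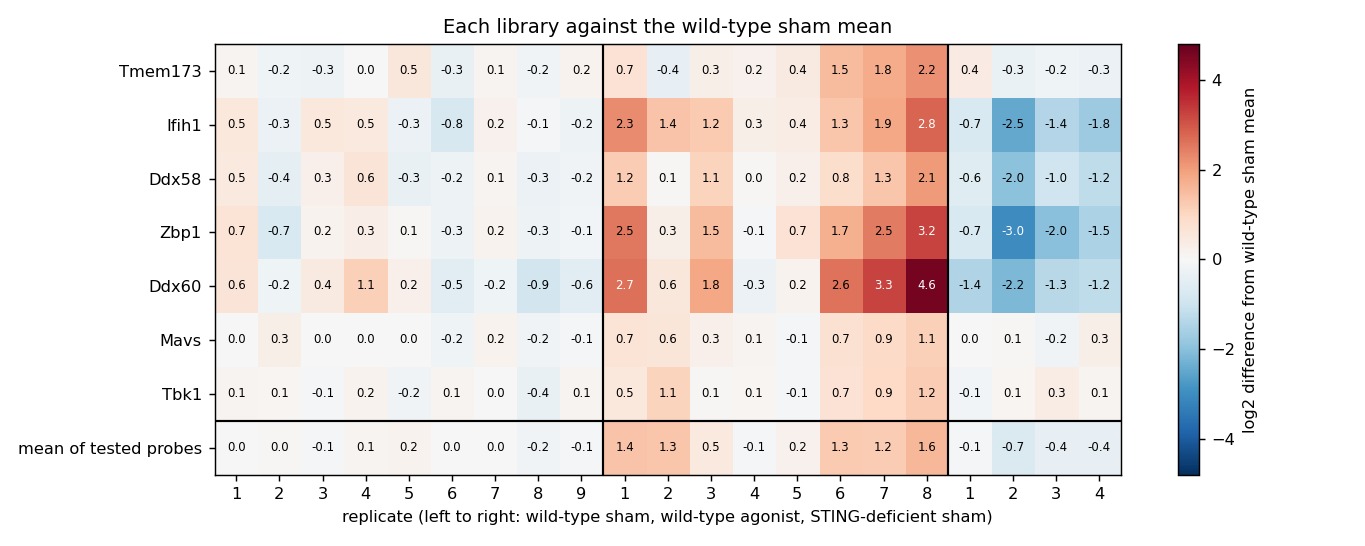
Difference of each library from the wild-type sham mean in log2(value + 1) for the 7 genes, with the mean over the 689 tested probes in the lowest row. Columns are replicates of wild-type sham, wild-type agonist and STING-deficient sham from left to right. Agonist replicates 4 and 5 stayed within 0.8 log2 units of the wild-type sham mean for all 7 genes, and STING-deficient replicate 2 was lowest for Ifih1, Ddx58, Zbp1 and Ddx60.

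Ratios between genes of the same library do not depend on the factor that scales it, so each sensor was also set against Mavs, Tbk1 and Ddx58. Differences of the mean log2 ratio were tested with two-sided exact permutation tests over libraries. The same test was run on every tested probe without a blank cell, and p-values were adjusted over these 687 ratios. A ratio shows unequal change and does not show which gene moved.

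The ratio of Mavs to Tbk1 did not differ detectably between the groups, and ran from -0.62 to 0.09 log2 units over all libraries. The log2 ratio of Tbk1 to Mavs differed by 0.02 between agonist and wild-type sham (exact permutation p = 0.871) and by 0.06 between STING-deficient and wild-type sham (exact permutation p = 0.667). Over the 21 libraries the centred log2 values of Mavs and Tbk1 differed by a root mean square of 0.22, the smallest of the 21 pairs among the 7 genes, and the farthest pair, Ddx60 and Tbk1, differed by 1.42. The ratio of Tmem173 to Mavs differed by 0.31 after agonist (exact permutation p = 0.226) and by -0.16 in STING-deficient sham (exact permutation p = 0.446).

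In STING-deficient sham the ratio of each of the 4 sensors to Mavs was lower than in wild-type sham. The differences in log2 ratio were -1.67 for Ifih1, -1.65 for Ddx60, -1.89 for Zbp1 and -1.23 for Ddx58. Exact permutation gave p = 0.0014 for the first 2, the smallest that 4 against 9 libraries allow, and 0.0028 for the others. Adjusted over all probes these were 0.0331 and 0.0447, when 6.26% of probes had a lower ratio to Mavs at that threshold and none a higher one. The ratios of Ifih1 and Ddx60 to Mavs did not overlap between the genotypes, a state that was not counted over all probes and is not shown to be particular to them. For Ifih1 the call was lost without STING-deficient replicate 2, 3 or 4, for Ddx60 also without wild-type sham replicate 6 or 7, and for Zbp1 and Ddx58 without those STING-deficient replicates or any wild-type sham replicate but 2. The differences themselves stayed between -1.97 and -1.37 for Ifih1, between -1.79 and -1.42 for Ddx60, between -2.27 and -1.48 for Zbp1 and between -1.45 and -0.96 for Ddx58 when 1 library was left out.

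After agonist the ratio to Mavs rose for 3 of the 4 sensors. The differences were 0.90 for Ifih1 (exact permutation p = 0.00173, adjusted p = 0.0252), 1.01 for Zbp1 (exact permutation p = 0.00946, adjusted p = 0.0401) and 1.40 for Ddx60 (exact permutation p = 0.0137, adjusted p = 0.0479), when 22.6% of probes rose against Mavs and 7.13% fell. For Ddx58 the difference of 0.31 did not pass (exact permutation p = 0.17, adjusted p = 0.252). Without agonist replicates 6, 7 and 8 none of the 687 ratios to Mavs passed, 162 had an unadjusted permutation p under 0.05, and the difference for Ifih1 was 0.81 (exact permutation p = 0.011, adjusted p = 0.156). The Ifih1 call held whichever single library was left out, while the calls of Zbp1 and Ddx60 were each lost without any one of wild-type sham replicates 2, 3 and 5 to 9 or agonist replicates 1, 3, 6, 7 and 8.

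The 2 RNA helicases that detect viral RNA directly did not move in step. The log2 ratio of Ifih1 to Ddx58 was -1.25 ± 0.24 in wild-type sham (SD, n = 9), -0.66 ± 0.43 after agonist (SD, n = 8) and -1.69 ± 0.17 in STING-deficient sham (SD, n = 4). It rose by 0.59 after agonist (exact permutation p = 0.000823, adjusted p = 0.0492), when 4.22% of probes rose against Ddx58 and 1.02% fell. The difference in STING-deficient sham was -0.44 (exact permutation p = 0.00839, adjusted p = 0.02), when 2.33% of probes were lower against Ddx58 and 51.7% higher. Zbp1 moved in the same directions against Ddx58, by 0.70 (exact permutation p = 0.0021, adjusted p = 0.0493) and -0.66 (exact permutation p = 0.00559, adjusted p = 0.0151). The agonist values sat at the threshold: both calls were lost without any one of wild-type sham replicates 2 to 9 or agonist replicates 1, 6, 7 and 8, and that of Zbp1 also without agonist replicate 3. The differences were 0.59 for Ifih1 and 0.47 for Zbp1 without agonist replicates 6, 7 and 8 together, and neither passed (adjusted p = 0.35 for both, exact permutation). In STING-deficient sham, the Ifih1 call was lost without replicate 2 or 4 of that group and the Zbp1 call without replicate 2. For Ddx60 against Ddx58 the difference was 1.08 after agonist and -0.42 in STING-deficient sham. Neither passed (adjusted p of 0.0821 and 0.175, exact permutation).

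Against Tbk1, Ifih1 rose after agonist by 0.89 (exact permutation p = 0.00333, adjusted p = 0.0322), when 18.6% of probes rose and 4.51% fell. That call was lost without any one of wild-type sham replicates 2, 6, 7 and 9 or agonist replicates 1, 6, 7 and 8, and without agonist replicates 6, 7 and 8 together the difference was 0.78 (adjusted p = 0.196, exact permutation). Zbp1 and Ddx60 missed the threshold (adjusted p of 0.0643 and 0.0651). In STING-deficient sham all 4 sensors were lower against Tbk1, with differences of -1.73 for Ifih1, -1.29 for Ddx58, -1.96 for Zbp1 and -1.71 for Ddx60 (adjusted p from 0.0343 to 0.0458, exact permutation), when 6.11% of probes were lower. These genotype calls were each lost without STING-deficient replicate 2, 3 or 4, and each also without at least 3 of the single wild-type sham libraries. With 1 STING-deficient library left out, the smallest possible p of 0.0045 by itself limits which ratios can pass.

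Between agonist and STING-deficient sham the ratios to Mavs differed by 2.57 for Ifih1, 1.54 for Ddx58, 2.90 for Zbp1 and 3.04 for Ddx60 (adjusted p from 0.0323 to 0.0391, exact permutation). None of these 4 ratios overlapped between the groups, a state that was not counted over all probes. The calls were each lost without any one of agonist replicates 3, 5, 7 and 8 or STING-deficient replicates 2, 3 and 4, and that of Ddx60 also without agonist replicate 1 or 6. With 1 STING-deficient library left out the smallest possible p is 0.0061, which limits what can pass after adjustment over 687 ratios. At that threshold 20.5% of probes were higher against Mavs and 0.582% lower, and against Tbk1 24.5% were higher and 0.146% lower. Without agonist replicates 6, 7 and 8 the differences were 2.47, 1.45, 2.58 and 2.34, and no ratio of the 687 passed (adjusted p = 0.147 for these 4), although 183 had an unadjusted permutation p under 0.05. The smallest possible permutation p in that setting is 0.0079, which Ifih1 and Zbp1 reached against Mavs. Passing would need many of the 687 ratios at that floor, so the lost calls do not show that the differences went away. Against Ddx58, Ifih1 was higher by 1.03 and Zbp1 by 1.36 (adjusted p = 0.0125 for both, exact permutation), when 2.62% of probes were higher and 31.7% lower. The Ifih1 call was lost without STING-deficient replicate 2 or 4, and both were lost without agonist replicates 6, 7 and 8 (1.02 and 1.13, adjusted p = 0.0665 for both, exact permutation).

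**Figure D4:**
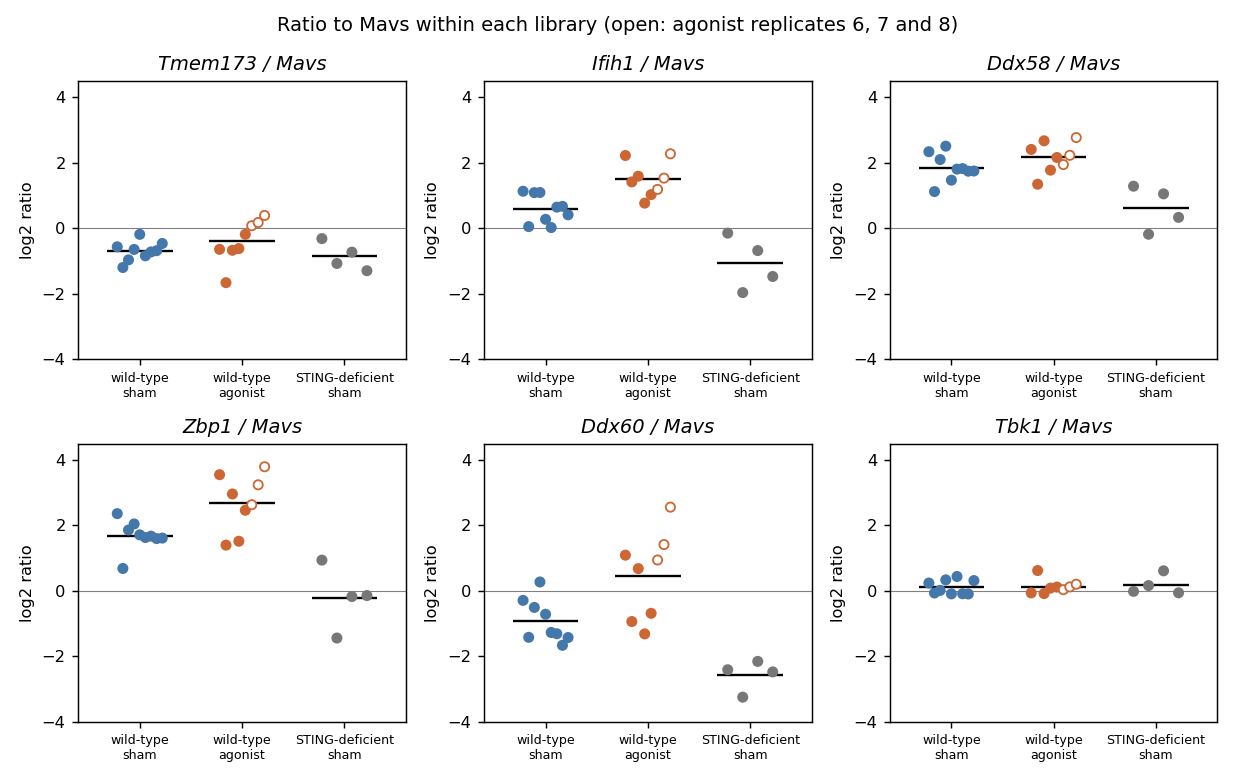
Log2 ratio of each of the other 6 genes to Mavs in every library, with group means as lines and agonist replicates 6, 7 and 8 as open points. The Tbk1 to Mavs ratios of the 3 groups overlapped, and the ratios of Ifih1 and Ddx60 in STING-deficient sham lay below every wild-type sham library. How many other probes did so was not counted.

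The probes most like each gene were found as the 3 tested probes with the smallest root mean square difference of centred log2 values over the 21 libraries, which share the library factors. Nearest to Ifih1 were Oas3, Ifit2 and Xaf1 (0.38 each), and to Zbp1 were Xaf1 (0.25), Ifit2 (0.39) and Ifih1 (0.42). Ddx58 lay closest to Bst2 (0.24), H2-T23 (0.30) and Stat2 (0.32), and Ddx60 to C2 (0.53), Zbp1 (0.56) and Usp18 (0.57). For Tmem173 they were Stat5b (0.25), Itga1 (0.26) and Pik3cg (0.30). Mavs was nearest to Jak1, Itch and Lamp1 (0.18 each), and Tbk1 to Ikbkg (0.19), Bcl10 (0.21) and Mavs (0.22). The median distance to all other tested probes ran from 0.68 for Mavs to 1.25 for Ddx60.

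Of a list of 40 other genes of nucleic acid sensing, 25 were on the panel and all were tested, among them endosomal Toll-like receptors, adaptors, kinases and transcription factors. After agonist 18 of 25 were called higher and none lower with limma (median 0.62 log2 units, all probes 0.98), when 71.1% of tested probes were called higher. With TMM scaling none was higher and 8 were lower, when 10.2% of probes were higher and 16.5% lower. Irf7, the interferon-inducible factor that amplifies interferon production, rose from 227 ± 102 (SD, n = 9) to 907 ± 738 (SD, n = 8), or 1.65 ± 0.43 log2 units (SE, adjusted p = 0.00443), but missed the threshold with TMM scaling (adjusted p = 0.0642) and without agonist replicates 6, 7 and 8 (adjusted p = 0.0658). Irf3, the factor that TBK1 phosphorylates, differed by 0.14 ± 0.14 (adjusted p = 0.3825) and by -0.73 with TMM scaling (adjusted p = 0.0239). The 4 largest differences in the list were those of Nlrc5, an activator of MHC class I genes (1.83), Irf7, Nlrp3, an inflammasome sensor (1.57), and Tlr9, the endosomal DNA sensor (1.51). The Nlrp3 group mean after agonist was 641 ± 1391 (SD, n = 8), and without agonist replicate 2 its difference was 0.95. With TMM scaling it was 0.70 and was not called (adjusted p = 0.2727).

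In STING-deficient sham 1 of the 25 was called, under both scalings, when 2.76% of tested probes were called lower. Irf7 was lower, at 30.5 ± 15.2 (SD, n = 4), a difference of -2.89 ± 0.54 log2 units (SE, adjusted p = 0.00247). Irf3 differed by -0.04 (adjusted p = 0.9535). Against STING-deficient sham, agonist libraries had 18 of the 25 higher and none lower, when 73.6% of tested probes were called higher. With TMM scaling 3 were higher and 9 lower, when 19.3% of probes were higher and 19.4% lower. Irf7 was higher there by 4.54 ± 0.55 (SE, adjusted p = 4.07e-06).

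The list of 30 interferon-induced genes had 25 on the panel, and 24 were tested. After agonist 22 were called higher and none lower (median 1.33 log2 units), when 71.1% of all tested probes were called higher. With TMM scaling 3 were called higher, when 10.2% of probes were. The largest called differences were those of the T cell chemokine Cxcl9 (2.33), the guanylate-binding protein gene Gbp5 (2.05), the oligoadenylate synthetase-like gene Oasl1 (1.93) and the dynamin-like GTPase gene Mx2 (1.84); with TMM scaling Gbp5 and Oasl1 were called (adjusted p of 0.0375 and 0.0238), and Cxcl9 and Mx2 were not (0.095 and 0.052). Without agonist replicates 6, 7 and 8 none of the 24 was called by limma, 17 had an unadjusted p under 0.05, as did 333 of the 689 probes, and the median was 0.87 against 0.67 for all tested probes.

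In STING-deficient sham 14 of the 24 were lower and none higher, under both scalings (median -1.81 log2 units, all probes -0.28), when 2.76% of tested probes were called lower. Ifit3 fell from 300.5 to 27.5, Ifit1 from 184 to 19.96, Ifi44 from 241 to 24.5 and Rsad2, which encodes viperin, from 122 to 13.6 in group means, with adjusted p of 0.0054, 1.12e-05, 0.0003 and 0.000413. All 4 had groups that did not overlap, a state reached downward by 5.66% of tested probes. They were picked for the largest called differences of the list in this same comparison, which favours such a gap. Of the interferon genes themselves, 5 of 7 were tested, and none was called between the genotypes by limma and none at an unadjusted p under 0.05 (median -1.05).

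Agonist libraries exceeded STING-deficient sham for 24 of 24 interferon-induced genes, when 73.6% of tested probes were called higher. With TMM scaling they did so for 17, when 19.3% of probes were called higher. Ifit3 differed by 5.01, Rsad2 by 4.58, Ifi44 by 4.57 and Oasl1 by 4.55 log2 units. After agonist 4 of the 5 tested interferon genes were called higher than in wild-type sham, when 71.1% of tested probes were. With TMM scaling none of the 5 was, also at an unadjusted p under 0.05, when 10.2% of probes were called higher.

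Because whole tumors were measured, fewer cells of a type and less RNA per cell cannot be told apart, and markers of the cells a tumor can hold were read beside these genes. After agonist 40 of the 49 tested markers in 10 lists were called higher and none lower, when 71.1% of all tested probes were called higher. With TMM scaling 8 were higher and 2 lower, when 10.2% of probes were higher and 16.5% lower. In limma without agonist replicates 6, 7 and 8, 0 of the 49 passed, and 30 had an unadjusted p under 0.05, as did 333 of the 689 probes. With all libraries, under the authors' scaling the markers called higher were 3 of 3 for leukocytes, 6 of 8 for macrophages and monocytes, 9 of 10 for T cells, 5 of 5 for NK cells, 2 of 3 for B cells, 4 of 5 for dendritic cells, 1 of 3 for neutrophils, 5 of 5 for endothelium, 2 of 4 for fibroblasts and 3 of 3 for epithelium. No marker was at 0 in any library, but neither was any other probe, so this does not show that a cell type was present. The lowest B cell marker value in STING-deficient sham was 0.857.

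The summed T cell markers ran from 209.6 to 300.3 in wild-type sham, from 219.8 to 1230.2 after agonist and from 152 to 299.8 in STING-deficient sham. Summed NK cell markers ran from 124 to 383, from 287 to 1551 and from 69.7 to 373 in the same order, and summed leukocyte markers from 583 to 941, 591 to 5109.9 and 497 to 1029. The macrophage and monocyte sum was 4582 to 5725, 4443 to 16598 and 4125 to 5440. Summed fibroblast markers ran from 7613 to 25640.0, 3094 to 192952 and 7746 to 20444.

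Endothelial markers summed to 169 to 267, 236 to 2161 and 124 to 181, epithelial markers to 62.1 to 145, 115 to 686 and 42.3 to 137, and neutrophil markers to 1822 to 8786, 2841 to 26858 and 1417 to 2357, again in the order wild-type sham, agonist and STING-deficient sham. The B cell sum ran from 85.6 to 159, 94.9 to 527 and 74.6 to 98.7, and the dendritic cell sum from 123 to 199, 157 to 712 and 90.7 to 209. Between the genotypes limma called none of the 49 markers, when 2.76% of tested probes were called lower. At an unadjusted p under 0.05, 5 markers passed, and the list medians ran from -1.26 for neutrophils to -0.13 for fibroblasts. The part of these markers in the differences of the 7 genes was not tested.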

How the data were processed

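Total RNA from whole tumors was hybridised to the 750 probes of the NanoString panel, per the labels' protocols. The deposited values are of unit signal: the authors multiplied the molecule counts of each library by 1 factor, and between 99.6% and 100% of values per library came out whole within 0.1 when divided by that factor. How the factor was set is not given in the sources used here, and processing that moves a whole library moves all 7 genes together. Values were fitted as log2(value + 1) with limma 3.58.1 (R 4.3.3), with a mean per group over all 21 libraries, a mean-variance trend and robust moderation, on 689 probes with a value of at least 20 in at least 4 libraries. Benjamini-Hochberg adjusted p under 0.05 was called. A pair of blank cells, both of Hif1a, was left out. TMM scaling and the count test used edgeR 4.0.16, and exact permutation tests were run in Python 3.11.15 and compared with scipy 1.17.1. The adjustment of ratio tests over 687 probes was added after the data were seen. The limma step was tested on simulated data. Within each group, the libraries differed by more than sampling noise in every pair. Of the 750 probe accessions 727 matched the GRCm38.p6 table, in which Tmem173 is Sting1; that of Ddx60 did not and keeps the name in the files. A second promoter motif that was searched is not reported here. The 7 genes and all gene lists were chosen with earlier results of these data known. Named list genes were Irf3 and Irf7 and, per list and comparison, the 4 with the largest called difference and a group mean of at least 50.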

Additional observations from a re-analysis of the deposited data

How the results depend on the processing

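The scaling of the libraries and agonist replicates 6, 7 and 8 changed most of the agonist results, and the cause was not tested. For agonist against wild-type sham, 495 probes were called, of which 99.0% were higher. TMM scaling gave 184 (38.0% higher), panel median scaling 192, edgeR's quasi-likelihood test on recovered counts with TMM 197, the fit without agonist replicates 6, 7 and 8 gave 3, and that fit with TMM gave 0, with 155 at an unadjusted p under 0.05. Under the same 5 settings, the 7 genes had 2, 1, 3, 0 and 0 calls instead of 7, the 25 pathway partners 8, 10, 8, 0 and 0 instead of 18, and the 24 interferon-induced genes 3, 3, 6, 0 and 0 instead of 22. For STING-deficient against wild-type sham, 19 probes were called, against 10 with edgeR at the deposited scaling, 82 with only those groups in the fit, and 11 with a pseudocount of 10. The calls among the 7 genes, 2 in all, became 0 with edgeR at the deposited scaling (4 of 7 at an unadjusted p under 0.05, and 54 of 688 probes), 1 without trend and robust moderation, 4 with only those groups, 0 with a pseudocount of 10 (3 of 7 unadjusted, and 45 of 689 probes) and 1 without the filter. Interferon-induced genes had 9 calls with edgeR at the deposited scaling instead of 14. For agonist against STING-deficient sham, 511 probes were called (99.2% higher), against 267 with TMM scaling (49.8% higher), 274 with panel median scaling, 285 with edgeR and TMM, and 174 without agonist replicates 6, 7 and 8 with TMM. That last setting left 7 pathway partners instead of 18 and 15 interferon-induced genes instead of 24.

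Some directions turned with the scaling. After agonist, TMM and panel median scaling gave -0.011 and -0.052 log2 units for Tmem173, -0.0062 and -0.048 for Ddx58, -0.32 and -0.36 for Mavs, -0.30 and -0.34 for Tbk1, and -0.73 and -0.77 for Irf3. With edgeR and TMM, Mavs was at -0.32, Tbk1 at -0.30 and Irf3 at -0.61. Without agonist replicates 6, 7 and 8 and with TMM, Tmem173 was at -0.36, Ddx58 at -0.092, Mavs at -0.31, Tbk1 at -0.29 and Irf3 at -0.32. Against STING-deficient sham, the same 4 settings gave -0.17, -0.35, -0.059 and -0.53 for Tmem173, -0.63, -0.81, -0.64 and -0.64 for Mavs, -0.67, -0.86, -0.68 and -0.68 for Tbk1, and -0.95, -1.14, -0.82 and -0.56 for Irf3. In STING-deficient against wild-type sham they gave 0.16, 0.30, 0.13 and 0.17 for Tmem173 and 0.22, 0.37, 0.21 and 0.24 for Irf3, and Mavs ran from -0.033 without STING-deficient replicate 4 to 0.12 without replicate 3. The log2 ratio of Tmem173 to Mavs differed by -0.059 after agonist without agonist replicates 6, 7 and 8. That of Tbk1 to Mavs, with 1 library left out, ran from -0.052 to 0.060 after agonist, from -0.082 to 0.14 between the genotypes and from -0.12 to 0.10 for agonist against STING-deficient sham.

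Leaving out each library in turn gave 435 to 544 probes, 7 of the 7 genes, 17 to 20 pathway partners and 21 to 23 interferon-induced genes after agonist. The ranges were 8 to 22, 0 to 3, 1 to 1 and 7 to 15 between the genotypes, and 420 to 548, 4 to 7, 16 to 19 and 23 to 24 for agonist against STING-deficient sham. The ratios were counted over 12 per comparison, which leave out Ddx60 to Ddx58, Tmem173 to Ddx58 and Tmem173 to Tbk1. Of these 12, 6, 10 and 10 passed with all libraries and 3, 5 and 5 with 10 added to each value. With 1 library left out 1 to 8, 0 to 10 and 1 to 10 passed. The smallest possible p with 1 STING-deficient library left out, 0.0045 between the genotypes and 0.0061 against agonist, limits the lowest of these counts.

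Replicate numbers were not shown to pair the libraries (correlations of same-numbered libraries from -0.20 to 0.61). STING-deficient replicates 1 and 2 did correlate best with the wild-type sham library of their own number (0.61 and 0.30). Replicates 3 and 4 did not (0.04 and -0.16). In the other comparisons only agonist replicate 2 did so, against STING-deficient sham (0.19). Whether libraries were run in sets was not tested. With the replicate block, 424, 11 and 403 probes and 7, 1 and 4 of the 7 genes were called in the order agonist, genotype and agonist against STING-deficient sham, 9 interferon-induced genes were called between the genotypes, and Tmem173 was at 0.27 there. Ddx60 in STING-deficient sham rests on few counts, which limits its precision.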
